A study of Mus musculus with 17 samples.

Results

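The nuclear-encoded subunits of the oxidative phosphorylation (OXPHOS) machinery were described in mouse livers and liver tumors by RNA-seq. Members were chosen by gene symbol alone: the Nduf a, b, c, s and v series, Sdha to Sdhd, the Uqcr genes with Cyc1, the Cox4i, Cox5, Cox6, Cox7 and Cox8 genes and the Atp5 genes, without the Ndufaf assembly factors and without symbols marked -ps, of which 11 were left out. This gave 84 of the 19151 genes listed for the high-fat diet (HFD) and 87 of the 24233 listed for the Western-type diet (WD). Of the 87, 40 carry complex I names, 4 complex II, 9 complex III, 17 complex IV and 17 complex V. Cox4i2, Cox6a2 and Cox8b were listed under WD alone. In the annotation 83 members are protein coding and 4 (Ndufa11b, Ndufb4c, Ndufs6b and Cox6c2) are processed pseudogenes, whose reads may have been shared with their parent genes.

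N-LKO mice lacked NgBR in the liver, through albumin-Cre and loxP-flanked NgBR alleles on a C57BL6 background. NgBR, encoded by Nus1, is a subunit of the cis-prenyltransferase that makes the dolichol backbone. Albumin-Cre acts in hepatocytes, and the paper names endothelial, stellate and Kupffer cells as liver cells that express NgBR. The study kept its mice on standard chow for 8 weeks before the diets. Whether WT mice carried loxP alleles or Cre is not given in the sources used here. Samples fell into 5 groups after 16 weeks of diet. Under HFD there were 4 WT and 4 N-LKO livers, and under WD, a diet high in fat and cholesterol, 3 WT livers, 3 N-LKO livers and 3 tumors from N-LKO livers. Values are CPM, read counts scaled to a common library total after TMM normalisation, unless stated. A gene is called changed at an adjusted p under 0.05 in edgeR's quasi-likelihood test with Benjamini-Hochberg adjustment over all genes tested, and fold changes are log2 values ± SE. In bulk tissue, fewer cells of a type and less RNA per cell cannot be told apart.

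The OXPHOS system sits in the inner mitochondrial membrane. Complex I takes electrons from NADH and complex II from succinate, complex III passes them to cytochrome c, complex IV hands them to oxygen, and complex V, the ATP synthase, uses the proton gradient built on the way to make ATP. Most subunits are encoded in the nucleus and imported, while a small set is encoded by mitochondrial DNA. Hepatocytes are rich in mitochondria and oxidize much of the fatty acid load of the liver. Nuclear respiratory factor 1 (NRF1), ETS factors such as GABP, and YY1 are known regulators of this gene family.

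Promoters are shown because, in N-LKO against WT liver, the fold changes of all tested members had 1 sign under HFD and all but 1 had the other sign under WD. RefSeq windows on GRCm38.p6, from 250 bases before to 50 after a gene start, matched 67 of the 87 members by symbol. The 100 bases just before the start of 4 members are printed 5′ to 3′ on the gene's strand, with matches to an NRF1 core (GCATGCGC) or an ETS core (CCGGAAGT) on either strand in capitals. All 4 hold a match in this stretch, which most of the 67 members do not. Uqcrh (chr4:116075071-116075170, minus strand) and Atp5k (chr5:108434400-108434499, minus strand) were called higher in N-LKO livers under HFD, and Sdhb (chr4:140961171-140961270, plus strand) and Atp5h (chr11:115419920-115420019, minus strand) were not.
Uqcrh: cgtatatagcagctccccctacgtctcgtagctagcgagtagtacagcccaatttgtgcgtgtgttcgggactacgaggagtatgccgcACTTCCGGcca
Atp5k: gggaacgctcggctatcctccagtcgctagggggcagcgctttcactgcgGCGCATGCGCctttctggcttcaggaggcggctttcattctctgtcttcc
Sdhb: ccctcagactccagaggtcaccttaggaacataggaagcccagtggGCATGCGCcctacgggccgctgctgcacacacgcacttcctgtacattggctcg
Atp5h: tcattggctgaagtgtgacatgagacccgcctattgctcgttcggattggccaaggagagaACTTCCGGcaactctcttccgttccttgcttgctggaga

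Over the whole windows of 300 bases, the NRF1 core stood on either strand in 10 of 67 member promoters (14.9%) and in 2.78% of the 27025 promoters of the table. The ETS core stood in 5 members (7.46%) and 3.93% of all promoters, and a YY1 core (AAGATGGC) in 9 members (13.4%) and 2.86% of all. At least 1 of them was found in 23 members (34.3%) and 9.03% of all promoters. Matches to different motifs overlapped in 0 windows. Among the 18 windowed members called higher under HFD 9 held a motif, and among the other 49 members, some not tested under HFD, 14 did. The NRF1 core stood in 2 of the called (11.1%) and 8 of the other members (16.3%). The ETS core stood in 3 (16.7%) and 2 (4.08%), and the YY1 core in 4 (22.2%) and 5 (10.2%). The difference between these sets was not tested. A match describes letters and not a bound site.

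Library totals were 9096110 to 12215784 counts under HFD and 15494731 to 20200618 under WD. Nus1 levels were 82.4 to 96.0 CPM in HFD WT livers and 29.3 to 37.9 in HFD N-LKO livers (−1.33 ± 0.10, adjusted p = 0.000194). Under WD they were 88.1 to 98.8 CPM in WT liver, 41.6 to 51.1 in N-LKO liver and 28.9 to 43.9 in tumors, and WT did not overlap with either (adjusted p = 0.151 for N-LKO and 0.00433 for tumor against WT). Hepatocyte markers, 7 of 8 of which were listed, summed to 31689 CPM or more in every library, tumors included. Members took 0.649% to 0.718% of the counts in HFD WT libraries and 0.844% to 0.887% in HFD N-LKO libraries. The shares under WD were 0.657% to 0.720% in WT liver, 0.615% to 0.672% in N-LKO liver and 0.627% to 0.743% in tumors.

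Levels of different members were compared as mean CPM per kilobase of transcript. Their medians were 63.7 in HFD WT livers and 70.7 in WD WT livers. Atp5b, the catalytic β subunit of ATP synthase, was highest in both, with 357 per kilobase under HFD and 444 under WD. Cox4i1, the common form of cytochrome c oxidase subunit 4, came next with 300.3 and 372. Ndufa4, named for complex I but also found with complex IV, led the complex I names (257 and 206). Uqcrh led complex III (190.0 and 173) and Sdha complex II (130.4 and 145). At the other end, 5 members under HFD and 7 under WD had a WT mean below 1 CPM. Some were tissue-restricted isoforms, such as Cox6b2 and Cox7a1 under both diets. Others were not, such as the pseudogene Ndufa11b and Ndufa4l2 under both diets and Atp5g2 under HFD.

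Under HFD, subunit transcripts were higher in N-LKO than in WT livers across the 5 complexes. Of 79 members tested, 23 rose and 0 fell, and all 79 fold changes were positive. Over all 13460 genes tested 4.84% were called, and 2.56% were called higher. The members had a median fold change of 0.28, and all genes −0.01. At an unadjusted p under 0.05, 54 members passed, all higher, as did 22.7% of all genes in either direction. In 44 members every N-LKO library lay above every WT library, which was so for 7.38% of all genes. Leaving out 1 library gave 4 to 20 calls: 13, 4, 20 and 8 without WT replicates 1 to 4, and 4, 17, 8 and 12 without N-LKO replicates 1 to 4.

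The rise was seen in the summed level of the complexes, library by library. Relative to the WT mean, the summed CPM in N-LKO livers was 1.26 ± 0.0193 for complex IV (SD, n = 4), 1.19 ± 0.00666 for complex I, 1.17 ± 0.0189 for complex III, 1.11 ± 0.00553 for complex V and 1.10 ± 0.0617 for complex II. N-LKO and WT libraries did not overlap in complexes I, III, IV and V. In complex II the lowest N-LKO library stood at 1.02 and the highest WT library at 1.05. By members, 11 of 38 rose in complex I, 2 of 4 in complex II, 2 of 9 in complex III, 5 of 12 in complex IV and 3 of 16 in complex V.

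**Figure D1:**
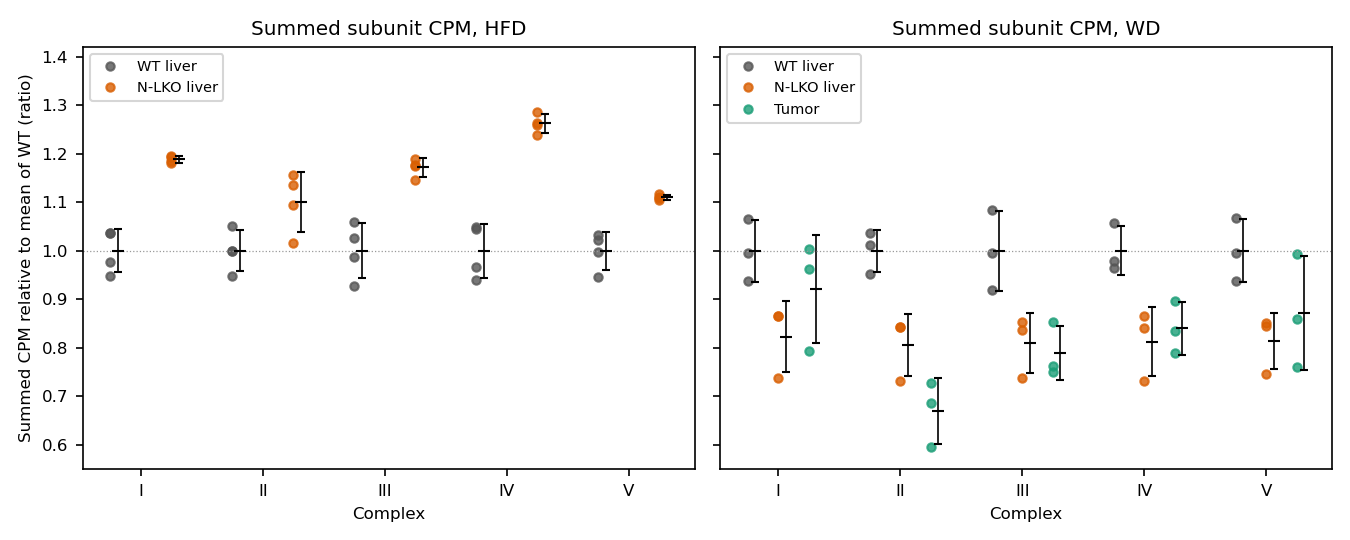
Summed CPM of the subunits of each complex in each library, divided by the mean of the WT libraries of the same diet (y axis, ratio); points are libraries and bars are mean ± SD (n = 4 per group under HFD, n = 3 under WD). Under HFD the N-LKO means were 1.10 to 1.26; under WD the N-LKO liver means were 0.805 to 0.823 and the tumor means 0.670 to 0.920.

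Ndufa5, an accessory subunit of the matrix arm of complex I (chr6:24518666-24528013, minus strand), rose the most. Its WT livers had 28.9, 25.9, 31.7 and 26.7 CPM and its N-LKO livers 44.97, 47.0, 46.0 and 39.5 CPM. The groups did not overlap (0.65 ± 0.09, adjusted p = 0.00802), and it was the only member called in all 19 alternative analyses. Ndufa2, a further accessory subunit, had 25.1, 24.2, 28.9 and 24.4 CPM in WT and 38.6, 40.5, 37.7 and 30.1 CPM in N-LKO livers (0.52 ± 0.11, adjusted p = 0.0237). N-LKO replicate 4 was the lowest of its group for both genes and still above each WT library.

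Among other complex I genes, Ndufs6, a zinc-binding subunit added late in assembly, rose by 0.47 ± 0.08. Ndufs5 (adjusted p = 0.0228), Ndufb10 (0.0185), Ndufa3 (0.0300), Ndufc1 (0.0497), Ndufc2 (0.0375), Ndufs4 (0.0449) and Ndufa10 (0.0455) also rose, with fold changes from 0.29 for Ndufa10 to 0.44 for Ndufs5. Of the 7 core subunits, which carry the flavin and the iron-sulfur clusters and reduce ubiquinone, 1 was called: Ndufs3 rose by 0.30 ± 0.08 (adjusted p = 0.0458). The core median was 0.16 and that of the other 31 complex I members 0.31. The core transcripts are also longer, with a median of 1623 bases against 763. Ndufv1, which binds NADH, had 84.9 ± 4.37 and 88.0 ± 5.16 CPM in WT and N-LKO livers, respectively (SD over 4 livers, adjusted p = 0.729). These groups overlapped.

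In complex II the membrane anchors Sdhc and Sdhd, which bind ubiquinone, both rose. Sdhc had 113.8, 103.6, 118 and 119 CPM in WT and 144, 147, 134 and 148 CPM in N-LKO livers (0.33 ± 0.08, adjusted p = 0.0327). Sdhd had 134, 112, 125 and 127 CPM in the former and 157, 144, 169 and 163.5 CPM in the latter (0.35 ± 0.08, adjusted p = 0.0413). The groups were apart for both anchors. Sdha, the succinate-oxidizing flavoprotein, had 401, 373, 369.9 and 369 CPM in WT and 415, 339, 379 and 388 CPM in N-LKO livers (0.01 ± 0.08, adjusted p = 0.974). It overlapped, and so did the iron-sulfur subunit Sdhb, at 84.0 ± 5.04 and 89.8 ± 6.76 CPM (0.10 ± 0.08, adjusted p = 0.517). The longest coding transcripts had 2900 bases for Sdha, 1142 for Sdhb, 3171 for Sdhc and 1231 for Sdhd.

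In complex III, Uqcrh, the hinge protein beside cytochrome c1 (chr4:116066965-116075071, minus strand), had 97.3, 97.9, 111 and 109.6 CPM in WT and 145, 151, 151 and 139 CPM in N-LKO livers. It rose by 0.49 ± 0.08 (adjusted p = 0.00988) with no overlap. Uqcr10, a small supernumerary subunit, rose by 0.35 ± 0.09 (adjusted p = 0.0491). Cytochrome c1 (Cyc1, 0.10), the Rieske protein (Uqcrfs1, 0.26) and the core proteins Uqcrc1 (0.03) and Uqcrc2 (0.09) did not pass. Uqcrfs1 was nonetheless apart between the groups, at 137 ± 7.002 and 165 ± 2.85 CPM.

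All 12 tested complex IV genes had positive fold changes, with a median of 0.35. Cox4i1 (chr8:120668222-120674207, plus strand) had 211, 222, 236 and 249 CPM in WT and 307, 333, 299 and 293 CPM in N-LKO livers (0.42 ± 0.08, adjusted p = 0.0186). Cox8a (0.46 ± 0.08), Cox6c (0.45 ± 0.07), Cox6b1 (0.40 ± 0.07) and Cox7a2 (0.37 ± 0.08) rose as well, each apart from WT in every library. These supernumerary subunits surround the catalytic core, which is encoded by mitochondrial DNA. Cox5a missed the limit (0.36 ± 0.09, adjusted p = 0.0516). Cox7b had the smallest fold change of the complex, at 113.8 ± 10.1 and 121 ± 7.66 CPM (0.09, adjusted p = 0.573).

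In complex V the small membrane subunits Atp5mpl (0.42 ± 0.08), Atp5l (0.40 ± 0.09) and Atp5k (0.39 ± 0.09) rose. The subunits of the catalytic head did not pass. Atp5b had 679, 689.9, 654 and 709.6 CPM in WT and 670.5, 694, 679.8 and 696 CPM in N-LKO livers (0.00 ± 0.08, adjusted p = 0.985). Atp5a1 (634 ± 49.4 and 682 ± 21.4 CPM) and Atp5c1 (165 ± 7.90 and 183 ± 9.53 CPM) overlapped as well. Of the genes for the c ring, which turns as protons pass, Atp5g3 had 168 ± 12.9 and 202 ± 1.66 CPM (0.27, adjusted p = 0.0693) and Atp5g1 19.7 ± 1.78 and 22.5 ± 2.28 CPM (0.19, adjusted p = 0.298). Atp5g2 was at 0.203 to 1.62 CPM and was not tested.

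**Figure D2:**
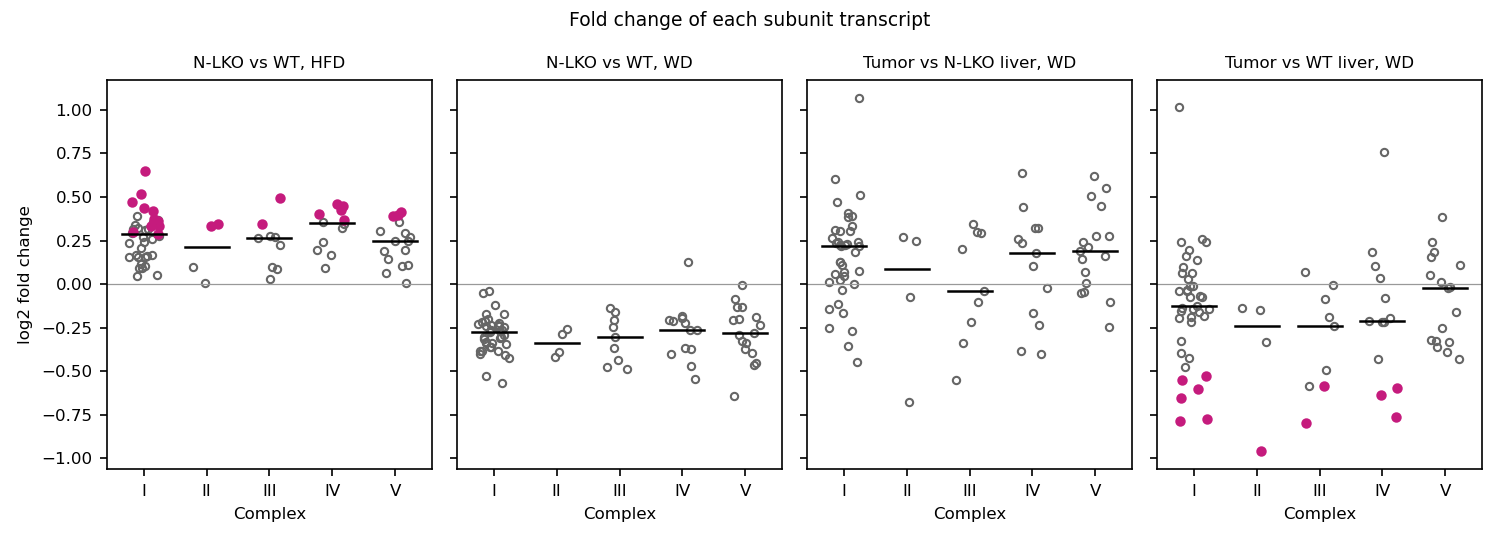
log2 fold change of each tested member (y axis) by complex (x axis) in the 4 pairwise comparisons; filled points passed an adjusted p of 0.05, open points did not, and bars are medians. Under HFD all 79 values lay above 0, under WD 81 of the 82 N-LKO liver values lay below 0, and the 12 members called in tumor against WT liver were all lower.

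Transcript length moved with these fold changes. The members are short: their median transcript length was 875 bases, beside 2838 over all genes tested under HFD. With all genes in 10 length bins of equal size, the median fold change of N-LKO against WT fell step by step from 0.21 in the shortest bin (66 to 883 bases) to −0.19 in the longest (6435 bases and more). The shortest bin held 40 of the 79 members, with a median of 0.34. Across the 79 members fold change and log2 length had Pearson's r = −0.48 and Spearman's rho = −0.49, a description only, since all members come from the same 8 libraries.

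Within classes of length the member medians lay above those of other genes. Up to 600 bases the 18 members had a median of 0.34 with 7 called, and the 684 other genes 0.24 with 8.63% called higher. Over 600 and up to 1000 bases the medians were 0.32 (n = 27, 10 called) and 0.17, with 7.06% of other genes called higher. Over 1000 and up to 2000 bases they were 0.16 (n = 25, 4 called) and 0.10, with 3.48% of other genes called higher, and over 2000 bases 0.19 (n = 9, 2 called) and −0.07, with 1.11%. Cytosolic ribosomal proteins, a family outside the mitochondrion with transcripts about as short (median 906 bases), had a median of 0.27, and 17 of 83 were called higher.

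A smooth offset for transcript length, fitted in each library over all genes, reduced the trend. With it the member median was 0.12, 67 of 79 fold changes were positive, and 2 members were called, beside 1.65% of all genes. These were Ndufa5 (0.51, adjusted p = 0.0221) and Sdhc (0.36, adjusted p = 0.0413). Medians under the offset were 0.18 in complex IV, 0.17 in complex I, 0.13 in complex II, 0.11 in complex V and 0.08 in complex III. For some members the longest coding transcript is far longer than the median one, as for Sdhc with 3171 against 815 bases. With the median coding length in the offset, an alternative chosen after seeing the data, 6 members were called: Cox4i1, Cox6c, Cox8a, Ndufa5, Ndufs6 and Uqcrh. Sdhc was not among them (adjusted p = 0.0950). How much of the rise goes with length was not tested beyond these offsets.

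**Figure D3:**
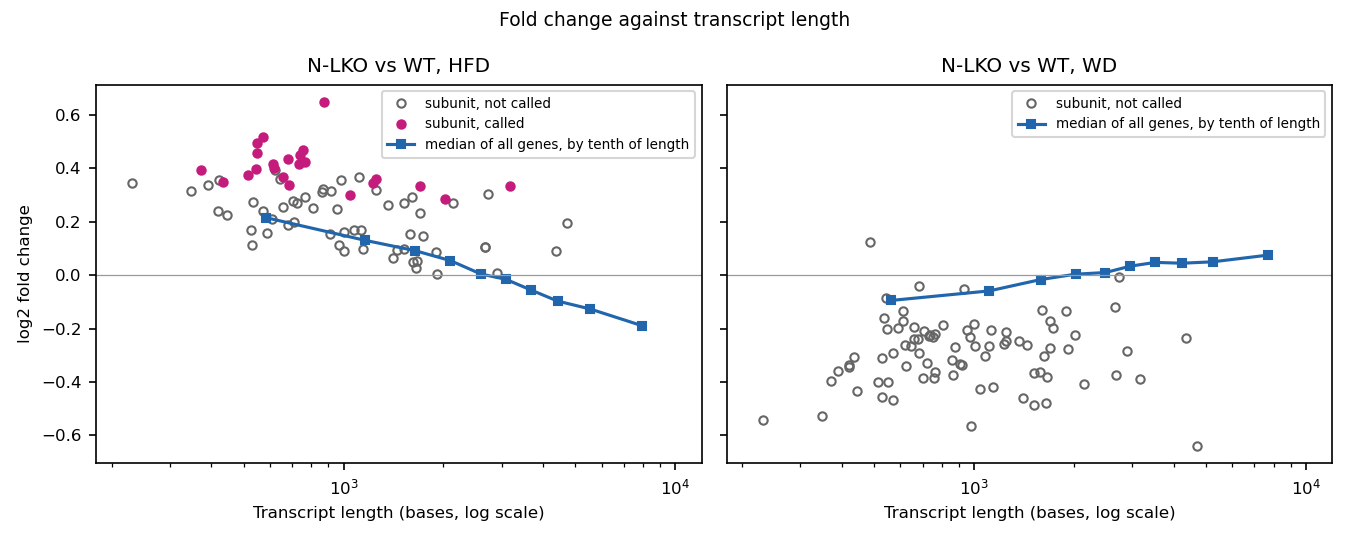
log2 fold change of N-LKO against WT liver (y axis) against transcript length (x axis, log scale) for each tested member under HFD and WD, with the median of all tested genes in 10 length bins. Under HFD the median falls from 0.21 to −0.19 and most called members lie at the short end; under WD it goes from −0.10 to 0.07 while the members lie around −0.28.

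Under WD the members were on the lower side in N-LKO livers, and 0 of 82 were called. Nor was any other gene: 0.0% of 17829 genes passed. The median fold change of the members was −0.28, beside 0.01 over all genes, and 81 of the 82 were negative. At an unadjusted p under 0.05, 20 members were lower and 0 were higher, and 12.4% of all genes passed; DESeq2 called 0 members. In 57 members every N-LKO library lay below every WT library, as it did for 13.6% of all genes. Medians by complex ran from −0.26 in complex IV to −0.34 in complex II.

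The summed CPM of all members was 7680.1 ± 464 in WT livers against 6257 ± 500.3 in those of N-LKO mice (SD over 3 livers each). The lowest WT value was 7228 and the highest N-LKO value 6546. This separation depends on the scaling. TMM factors were 0.941, 0.806 and 0.954 in WT livers and 1.01, 1.08 and 1.03 in N-LKO livers. As shares of the counts before TMM, the groups overlapped, at 0.657% to 0.720% in WT and 0.615% to 0.672% in N-LKO livers. The order of libraries given for single members also refers to values after TMM. Core and accessory subunits lay close together, with medians of −0.30 and −0.27 in complex I, −0.36 and −0.31 in complex III, and −0.28 and −0.26 in complex V. Atp5g1 had the lowest fold change, with 29.9, 31.8 and 24.0 CPM in WT livers against 17.9, 16.3 and 20.7 CPM in N-LKO livers (−0.64 ± 0.15, adjusted p = 0.353). Ndufs7, a core subunit with an iron-sulfur cluster, had 25.6, 34.4 and 26.0 against 20.6, 18.7 and 18.8 CPM (−0.56 ± 0.17, adjusted p = 0.353). Neither pair of groups overlapped. Cyc1, the heme protein that feeds cytochrome c, had 88.8, 100.4 and 79.1 against 65.7, 64.0 and 61.9 CPM (−0.48 ± 0.21, adjusted p = 0.397).

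Of the members called under HFD, Cox4i1 had 275, 305 and 274 CPM in WD WT livers and 216, 216 and 231 CPM in WD N-LKO livers (−0.36 ± 0.14, adjusted p = 0.380). Ndufa5 had 29.8, 30.02 and 26.4 against 25.4, 23.5 and 22.7 CPM (−0.27 ± 0.14, adjusted p = 0.459). For both, every N-LKO library lay below every WT library, the opposite order to HFD. The one positive value was that of Cox7a1, a muscle isoform at 0.343 to 1.03 CPM in these livers (0.13, adjusted p = 0.925).

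The length trend ran the other way under WD and was smaller, with medians over all genes of −0.10 in the shortest bin and 0.07 in the longest. Members up to 600 bases had a median of −0.34 and other genes of that length −0.09. Over 2000 bases the medians were −0.28 (n = 9) and 0.04. Fold change and log2 length had r = 0.03 and rho = 0.07 across the 82 members. With the length offset the member median was −0.19, and 4 members had a positive value. Cytosolic ribosomal proteins had a median of −0.05 under WD and mitochondrial ribosomal proteins −0.21.

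The genotype effects of the 2 diets were set against each other, as WD minus HFD, in 1 fit over the 14 livers, the same livers as in both comparisons above. All 80 tested members had a negative value, with a median of −0.52 beside 0.00 over all genes. Of these, 29 were called, all lower, where 1.62% of 15850 genes were called and 1.03% called lower. With the replicate number as a block 0 members were called, and Ndufa5 had the smallest adjusted p (0.0625). Leaving out 1 library gave 7 to 30 calls. Those below 20 were 12 without HFD WT replicate 1, 8 without HFD WT 2, 10 without HFD N-LKO 1, 13 without WD WT 1, 10 without WD WT 2, and 13, 8 and 7 without WD N-LKO 1, 2 and 3. The diets were deposited as separate tables and diet and table cannot be told apart, so levels were not tested between diets.

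By complex, 8 of 12 members were called in complex IV, 13 of 38 in complex I, 3 of 9 in complex III, 2 of 4 in complex II and 3 of 17 in complex V. Ndufa5 had the smallest p (−0.89 ± 0.13, adjusted p = 0.0159), from 0.65 under HFD and −0.27 under WD. Cox4i1 followed with −0.76 ± 0.12 (adjusted p = 0.0202), from 0.42 and −0.36. Ndufs6 (−0.83), Cox8a (−0.83), Ndufa3 (−0.76), Ndufs3 (−0.70), Sdhc (−0.70), Uqcrh (−0.67), Cox6c (−0.65) and Cox6b1 (−0.64) made up the 10 members with the smallest p. Ndufs7 had the lowest value (−0.90 ± 0.20, adjusted p = 0.0388). Sdha (−0.27), Atp5b (−0.26), Ndufs1 (−0.20) and Uqcrc2 (−0.20), all with transcripts of 1896 bases or more, did not pass. Cox7b (−0.25, adjusted p = 0.526), with a shorter transcript than these, did not pass either. Up to 600 bases, 7 of 18 members were called. Of the 9 members over 2000 bases 3 were called: Atp5g1 (4715 bases, −0.81), Sdhc (3171 bases) and Ndufb8 (2142 bases, −0.66).

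With the length offset 1 member, Sdhc (−0.76), was called, beside 0.0442% of all genes. The member median was then −0.33 and 0 values were positive. With an offset for length and GC content 0 members were called, the median was −0.29 and 2 values were positive.

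**Figure D4:**
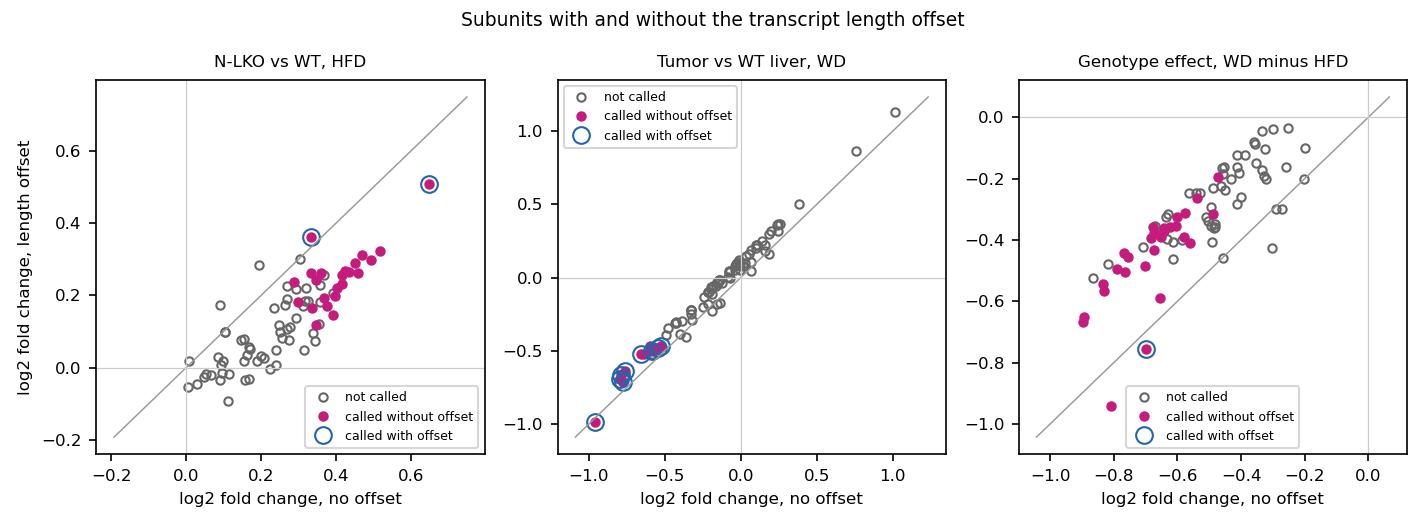
log2 fold change of each tested member without (x axis) and with (y axis) the transcript length offset, for N-LKO against WT liver under HFD, tumor against WT liver under WD, and the genotype effect WD minus HFD; the grey line marks equal values. With the offset 2 members were called under HFD, 9 in tumor against WT liver and 1 in the difference of effects.

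Tumors were compared with both WD liver groups, so the same tumor samples enter both comparisons. The labels do not say whether tumors and N-LKO livers came from the same mice, and the main test treats them as separate samples. The sample names hold numbers other than the replicate numbers, some shared by an N-LKO liver and a tumor of unlike replicate number. Pairing by these was not examined. Against WT liver, 12 of 82 members fell and 0 rose. Over all genes 14.9% were called in this comparison and 6.8% were called lower. The member median was −0.15, that of all genes 0.04, and 59 member values were negative. At an unadjusted p under 0.05, 22 members were lower and 1 higher, while 32.5% of all genes passed. In 24 members every tumor lay below every WT liver, as it did for 16.4% of all genes. Leaving out 1 library gave 2 to 12 calls, with 5 without WT replicate 1, 2 without WT 2, 7 without N-LKO 3 and 7 without tumor 2. The 12 calls without tumor 1 were 10 lower and 2 higher.

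Sdha (chr13:74322254-74350280, minus strand), which also serves the citric acid cycle, fell the most. It had 444, 415 and 404 CPM in WT liver, 365, 309.7 and 362 CPM in N-LKO liver and 277, 170.3 and 201 CPM in tumors. Every tumor lay below every library of both liver groups (−0.96 ± 0.19 against WT, adjusted p = 0.0139; −0.68 ± 0.19 against N-LKO liver, adjusted p = 0.114). It was called against WT liver in all 21 alternative analyses. The other complex II genes did not pass: Sdhb had 55.4, 85.3 and 96.0 CPM in tumors and 78.0 to 95.3 CPM in WT liver (−0.15, adjusted p = 0.645), Sdhc had −0.14 and Sdhd −0.33. The summed level of complex II was 451 to 551 CPM in tumors, below each N-LKO liver (554 to 639) and each WT liver (722 to 786). Sdha, the most abundant complex II gene, weighs most in this sum, which is thus not separate from its fall. Against N-LKO liver Sdhb (0.27) and Sdhc (0.25) had positive values and Sdhd −0.07.

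Uqcrfs1 (chr13:30540308-30545362, minus strand), the Rieske iron-sulfur protein that takes electrons from ubiquinol in complex III, had 154, 162.1 and 136 CPM in WT liver, 133, 122 and 125.7 CPM in N-LKO liver and 105, 79.2 and 75.5 CPM in tumors. It was lower in every tumor than in every liver (−0.80 ± 0.15 against WT, adjusted p = 0.0135; −0.55 ± 0.15 against N-LKO liver, adjusted p = 0.115). Uqcrq, a small complex III subunit, fell as well (−0.59 ± 0.15 against WT, adjusted p = 0.0299). Cyc1 (−0.19) and Uqcrc2 (0.07) did not pass.

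Cox4i1 had 189, 141 and 172 CPM in tumors, below each library of both liver groups (−0.76 ± 0.15 against WT, adjusted p = 0.0131; −0.40 ± 0.14 against N-LKO liver, adjusted p = 0.189). Cox8a (−0.64 ± 0.17) and Cox7c (−0.60 ± 0.16) also fell against WT liver. Other complex IV genes lay on the other side of 0 without passing: Cox6b1 had 96.0, 133 and 148 CPM in tumors and 107 to 113 CPM in WT liver (0.18, adjusted p = 0.474), and Cox6c 143, 193 and 202 CPM and 162.1 to 172 CPM (0.10, adjusted p = 0.696).

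In complex I, 6 members fell against WT liver: Ndufb7 (−0.79 ± 0.16), the pseudogene Ndufs6b (−0.78 ± 0.22), Ndufs6 (−0.65 ± 0.15), Ndufs7 (−0.60 ± 0.17), Ndufv1 (−0.55 ± 0.12) and Ndufs4 (−0.53 ± 0.13). Ndufs4, an accessory subunit of the NADH-oxidizing module, had 38.7, 45.2 and 42.2 CPM in WT liver and 31.7, 26.8 and 29.04 CPM in tumors, which did not overlap. In complex V 0 members were called. Atp5g3 had the lowest value there (−0.43, adjusted p = 0.0776), and Atp5b had 851 ± 65.9 CPM in WT liver and 680.2 ± 40.8 CPM in tumors (SD, n = 3 each, −0.32, adjusted p = 0.150). With the length offset 9 members were called, beside 15.1% of all genes, and the member median was −0.04.

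Against N-LKO liver 0 members were called in tumors, and 0.499% of all genes were. The member median was 0.19, 58 of 82 values were positive, and at an unadjusted p under 0.05 11 members were higher and 6 lower, with 18.3% of all genes past that limit. DESeq2 called 2 members, both lower. In 5 members every tumor lay above every N-LKO liver, as it did for 11.5% of all genes, and in 5 every tumor lay below, as it did for 11.6% of all genes. Leaving out tumor replicate 1 gave 11 calls, 8 higher and 3 lower. In summed CPM of all members the tumors had 5888 to 7197 and the N-LKO livers 5679 to 6546.

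Isoforms of other tissues were near the floor in liver. Cox6a2 and Cox8b, the heart and skeletal muscle forms of their subunits, had 0 or 1 count in each WD liver library. In tumor replicate 2 they had 26 and 21 counts (1.15 and 0.932 CPM), and 2 counts or fewer in the other tumors. Muscle markers moved with this library: 7 of 8 were listed, and they summed to 139 CPM in tumor replicate 2 and to at most 1.37 CPM in every other WD library. Acta1 (52.9 CPM), Myh1 (37.9), Mb (25.5) and Ckm (18.7) made up most of it, while Actc1 and Tnnt2 were at 0.177 CPM each. Mb and Myl2 were at 0 in all WD livers. Their part in the isoform values was not tested. Without tumor replicate 2, 7 members were called lower in tumor against WT liver.

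Cox6b2, known from testis, had 0.201, 4.04 and 1.67 CPM in tumors and 0.137 to 0.407 CPM in WD livers, and did not pass the filter on low counts. Its common counterpart Cox6b1 was at 83.1 to 148 CPM. Ndufa4l2, a paralog of Ndufa4 known to be induced by hypoxia, had 0.653, 1.55 and 1.87 CPM in tumors and 0.584 to 0.775 CPM in the livers (1.02 ± 0.42 against WT, adjusted p = 0.121). For both genes tumor replicates 2 and 3 stood above all livers and tumor replicate 1 among them. Cox4i2, the lung isoform, had 6 counts or fewer in each WD library. Of the c-ring genes, Atp5g2 had 2.61, 3.24 and 2.97 CPM in tumors, above all livers (1.61 to 2.47 CPM; 0.39 ± 0.25 against WT, adjusted p = 0.304). Atp5g1 had −0.36 and did not pass either. Cox7a1 had 0.853, 1.55 and 0.989 CPM in tumors and overlapped with the livers.

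**Figure D5:**
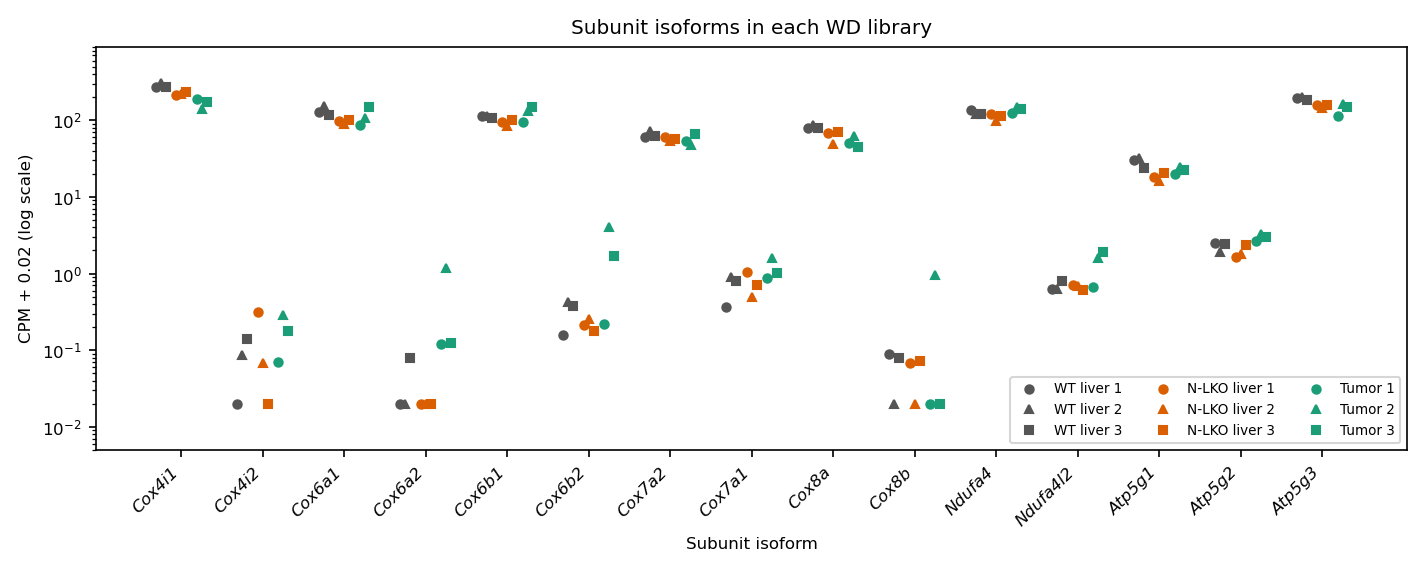
Level of 15 subunit isoforms in each WD library (y axis, CPM plus 0.02 on a log scale); colors are groups and symbols are replicates (n = 3 per group). Cox6a2 and Cox8b reach 1.15 and 0.932 CPM in tumor replicate 2 and lie near the floor in the other libraries, and Cox6b2 reaches 4.04 and 1.67 CPM in tumor replicates 2 and 3.

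Of the 13 subunits encoded by mitochondrial DNA, 0 were called in any comparison. Under HFD their median was −0.01 and 2 were lower at an unadjusted p under 0.05, which 22.7% of all genes passed in either direction. Their summed level was 106313 to 115106 CPM in WT and 99347 to 122591 CPM in N-LKO livers. Under WD the median was 0.08 for N-LKO against WT liver, where the nuclear members had −0.28. Tumors had sums of 60551 to 69274 CPM, above the 47318 to 58539 CPM of WT and the 45761 to 59974 CPM of N-LKO livers, with medians of 0.32 and 0.29, respectively.

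Over all genes 2.56% were called higher under HFD, and with the length offset 1.65% were called in either direction. Of 45 tested assembly factors, which help build the complexes, 5 rose under HFD and 0 fell. They were Sdhaf1, which helps insert the iron-sulfur clusters of complex II (0.75 ± 0.13), and Cox20 (0.60 ± 0.10), Coa3 (0.50 ± 0.09), the copper chaperone Cox17 (0.48 ± 0.09) and Pet100 (0.48 ± 0.12), all factors of complex IV. The median of the list was 0.14, and with the length offset 0.08 with 2 called. Of 78 mitochondrial ribosomal proteins, 6 rose (median 0.19), and 4 were called with the offset. Of the 18 genes of the citric acid cycle and pyruvate dehydrogenase, 1 rose, the mitochondrial NADP-dependent isocitrate dehydrogenase Idh2 (0.48 ± 0.11). Among 13 genes of import, chaperones and the outer membrane, 2 rose, the chaperonin Hspe1 (0.45 ± 0.09) and the channel Vdac3 (0.39 ± 0.09). With the offset 0 genes of these last 2 lists were called. Of 9 carriers and 14 regulators of mitochondrial biogenesis 0 were called, with medians of 0.31 and −0.04. At an unadjusted p under 0.05, 5 regulators were lower, beside 22.7% of all genes in either direction.

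Under WD 0 genes of these lists were called in N-LKO livers, and 0 in tumors against N-LKO liver. Against WT liver tumors had lower levels of 2 of the 14 regulators, beside 6.8% of all genes called lower. These were Esrra (−0.59 ± 0.14) and Ppara (−0.71 ± 0.20), which encode nuclear receptors that drive oxidative genes. Esrra had 18.5, 21.1 and 17.7 CPM in WT liver and 11.3, 13.3 and 13.4 CPM in tumors, and Ppara 260.3, 365 and 334 against 193, 149.2 and 244 CPM. Neither overlapped. In the same comparison 2 carriers rose, Slc25a4, the ADP/ATP exchanger of heart and muscle (6.995, 4.74 and 7.45 CPM in WT liver and 22.1, 19.4 and 12.5 CPM in tumors), and Ucp2 (56.4, 42.6 and 52.7 against 74.3, 151 and 192 CPM). Of the assembly factors 3 fell and 1, Cox17, rose, and of the citric acid cycle genes 1 fell, Ogdh (−0.55 ± 0.14). Of the 78 mitochondrial ribosomal proteins 4 fell and 1 rose in tumors against WT liver, and of the 83 cytosolic ones 1 fell and 2 rose. Over all genes the share called in that comparison was 14.9%. For the genotype effect WD minus HFD, 4 assembly factors, 7 mitochondrial ribosomal proteins, 3 cytosolic ribosomal proteins, 1 carrier and 1 import gene were called, all lower, beside 1.03% of all genes called lower. With the length offset 0 genes of these lists were called.

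Markers of other cell types moved with genotype and with tumor, and their part in the results was not tested. Under HFD the 6 cholangiocyte markers summed to 20.4 to 38.8 CPM in WT and 54.9 to 100.1 CPM in N-LKO livers. The 7 markers of Kupffer cells and macrophages, below macrophage markers, were Clec4f, Vsig4, Timd4, Cd68, Adgre1, Csf1r and Cd5l. They summed to 119 to 162.3 CPM in WT and 59.5 to 129 CPM in N-LKO livers. The 6 endothelial markers summed to 99.6 to 122 and 73.3 to 108 CPM. By flow cytometry the paper found more macrophages in livers of HFD-fed N-LKO mice, a measure of cells and not of RNA. The marker list here also holds Kupffer cell markers, so the cells measured may differ. The 8 stellate cell markers summed to 113 to 215 CPM and 179 to 285 CPM, and 0 were called. At an unadjusted p under 0.05, 7 were higher and 1 lower, beside 22.7% of all genes in either direction. Of the macrophage markers 3 were called lower, beside 4.84% of all genes called in either direction. Hepatocyte sums overlapped, at 59309 to 69507 and 55659 to 72143 CPM. Under WD the hepatocyte sum was 44084 to 53418 CPM in WT livers, 31689 to 39891 CPM in N-LKO livers and 34522 to 59937 CPM in tumors, so that the 2 liver groups did not overlap. The 8 stellate cell markers summed to 266 to 682, 708 to 862 and 533 to 940.4 CPM in the same order, macrophage markers to 492 to 732, 458 to 535 and 179 to 456 CPM, cholangiocyte markers to 17.8 to 70.1, 115.5 to 153 and 195 to 523 CPM, and the 5 proliferation markers to 5.83 to 20.2, 23.9 to 39.3 and 39.9 to 89.4 CPM. In tumors against WT liver 2 of the 7 macrophage markers were called lower, beside 6.8% of all genes, and the median of the 7 was −1.36.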

How the data were processed

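By the study's methods, ribosomal RNA was removed and single-end reads were sequenced. The methods name a small RNA library kit, as do the labels. The authors deposited estimated counts per gene, made in Partek with an expectation-maximization step that divides shared reads, so 68 of the 84 HFD members and 74 of the 87 WD members had values that were not whole. The study's methods name TopHat2, while the submitters' processing notes name STAR and mm9. Gene starts in the files coincided with GENCODE M21 on GRCm38 for 18619 of 19151 and 23459 of 24233 genes, and this annotation gave positions, lengths and biotypes.

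Estimated counts were rounded and tested with edgeR 4.0.16 (R 4.3.3; quasi-likelihood, TMM, filterByExpr, two-sided, Benjamini-Hochberg). The 3 WD groups shared 1 fit, and SE was the fold change over the square root of F. Depth was 9096110 counts or more per library. Replicates are labelled biological; p-values measure the spread between these samples. Same-numbered samples did not deviate together in every pair over all genes tested, so replicate numbers were used as a block only as an alternative. Other alternatives were DESeq2 1.42.0, limma 3.58.1 voom, other scalings, no filter, length and GC offsets, and leaving out each replicate. The fits were tested on simulated counts. Their spread was set near that of the HFD fit (common biological coefficient of variation 0.149) and below that of the WD fit (0.243). The members and lists were chosen with earlier results of these data known. Named were all members called (the 25 with the smallest p where more), the extremes and most abundant of each complex, core subunits and paralogs.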

Additional observations from a re-analysis of the deposited data

Results flagged for a closer look

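For 79 members and 6 summed levels in each genotype, 170 groups of 4 HFD libraries in all, the spread was examined. In 12 of them the highest or lowest library stood apart by Dixon's test at the 95% level. Chance flags about 1 in 20 groups. In WT livers, replicate 1 was lowest for Ndufa1 (20.7 CPM) and highest for Sdha (401 CPM), and replicate 2 was lowest for Ndufb10 (79.1), Uqcrfs1 (127), Cox5a (83.4) and Atp5h (50.6 CPM). In N-LKO livers, replicate 3 was lowest for Ndufb5 (41.8 CPM), replicate 2 highest for Ndufb7 (54.4) and Atp5o (82.4) and lowest for Cox7b (109.7 CPM), and replicate 1 highest for Cox6a1 (130.3) and Cox7c (59.5 CPM).

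The genotype effect differed between the diets in 29 members by the test of the difference itself (WD minus HFD, log2, edgeR's quasi-likelihood test). The 25 with the smallest p had adjusted p-values of 0.0159 to 0.0398, and with a replicate block 0 members were called. With the length offset 1 member was called, and with the length and GC offset 0. Diet and table cannot be told apart, so the difference may belong to either. In complex I the differences were −0.89 for Ndufa5, −0.76 for Ndufa3, −0.83 for Ndufs6, −0.70 for Ndufs3, −0.64 for Ndufb9, −0.66 for Ndufb8, −0.79 for Ndufa2, −0.62 for Ndufb10, −0.65 for Ndufs5, −0.68 for Ndufb4c, −0.90 for Ndufs7 and −0.47 for Ndufb6. In complexes II and III they were −0.70 for Sdhc, −0.58 for Sdhd and −0.67 for Uqcrh. In complex IV they were −0.76 for Cox4i1, −0.64 for Cox6b1, −0.65 for Cox6c, −0.83 for Cox8a, −0.68 for Cox6a1, −0.67 for Cox5b and −0.60 for Cox5a. In complex V they were −0.58 for Atp5g3, −0.77 for Atp5k and −0.81 for Atp5g1.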

How the results depend on the processing

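Every alternative kept the direction of the 5 member medians. For N-LKO against WT liver under HFD the 23 calls became 36 with DESeq2, 2 with the transcript length offset, 2 with the length and GC offset, 5 with the exon-union length and 6 with the median coding length. They became 15 with a replicate block, 1 with the replicate block and the length and GC offset, and 4 of 12 among members with whole counts. The median of 0.28 became 0.12, 0.12, 0.18 and 0.14 with the 4 offsets in that order and 0.12 with the block and offset. Leaving out 1 library gave 4 to 20 calls: 13 without WT replicate 1, 4 without WT 2, 8 without WT 4, 4 without N-LKO 1, 8 without N-LKO 3 and 12 without N-LKO 4. Under WD 0 members were called in N-LKO livers in each alternative. Tumor against N-LKO liver gave 2 calls with DESeq2 and 0 to 11 with a library left out (11 without tumor 1). The 12 calls of tumor against WT liver became 5 with the block and offset, 4 in a fit of the 2 groups alone, 2 of 8 among members with whole counts and 2 to 12 with a library left out (5 without WT 1, 2 without WT 2, 7 without N-LKO 3 and 7 without tumor 2). For the genotype effect WD minus HFD the 29 calls became 57 with DESeq2, 1, 0, 1 and 4 with the 4 offsets, 0 with a replicate block, 0 with the block and offset, 5 of 6 among members with whole counts and 7 to 30 with a library left out (12 and 8 without HFD WT 1 and 2, 10 without HFD N-LKO 1, 13 and 10 without WD WT 1 and 2, and 13, 8 and 7 without WD N-LKO 1 to 3). Its median of −0.52 became −0.33, −0.29, −0.38 and −0.38 with the offsets and −0.29 with the block and offset. The causes were not tested beyond the fewer samples or members that some of these settings hold. Same-numbered samples correlated by −0.08 to 0.12 under HFD and 0.06 to 0.07 for WT and N-LKO liver under WD, and other-numbered samples by up to 0.15 and 0.12, over deviations of all tested genes. These do not show that the numbers pair the samples. Among genes with a mean of 10 CPM or more, the 3 WD pairs of WT and N-LKO liver all passed the limit of 0.1, with 0.17 to 0.18. Other-numbered pairs of these livers ran from −0.32 to 0.28, so the values cannot decide whether they are paired, and the answer depends on the genes used. For N-LKO liver and tumor in the same genes, same-numbered pairs had 0.079 to 0.158 and other-numbered pairs −0.181 to 0.076. The main fit treats all samples as unpaired. With the block 0 members were called between the liver groups under WD, as without it.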
